A study of Homo sapiens with 9 samples.

Results

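The genes described here encode the proteins of the mitochondrial ribosome, and were taken as every gene symbol in the count tables that starts with MRPL or MRPS followed by a digit. Of 25680 symbols, 81 met this rule. They comprised 77 protein-coding genes (48 MRPL and 29 MRPS), 3 pseudogenes (MRPL42P5, MRPL45P2 and MRPS31P5) and the antisense transcript MRPL23-AS1. The 78 genes that passed the filter on low counts were tested, among 14199 genes tested in all. RNA was sequenced from SKNO-1, a human acute myeloid leukaemia line with the AML1-ETO fusion (written AML-ETO in the labels), which the study grew in medium with GM-CSF. There were 9 libraries in 3 groups of 3, named EV, SH2 and SH3 in the labels. SH2 and SH3 are different shRNAs against ASXL2, and EV is the control, a term that the labels do not spell out and that the study describes as a control shRNA. The study describes the 3 libraries of a group as biological replicates. All 3 groups carry the same numbers (1, 13 and 25) in their titles, with no meaning given.

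Mitochondrial ribosomes translate the few proteins encoded by mitochondrial DNA, all of them subunits of the oxidative phosphorylation machinery. Their RNA is mitochondrial, but all of their proteins are encoded in the nucleus, made in the cytosol and imported. MRPL genes mostly encode the large subunit, which forms the peptide bond, and MRPS genes mostly the small subunit, which reads the mRNA. The names are historical: the products of MRPS18A and MRPS30 sit in the large subunit, and MRPS36 is now known as a component of the 2-oxoglutarate dehydrogenase complex. Many of these proteins have relatives in bacterial ribosomes, and the others are found only in mitochondria.

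In the libraries numbered 1, 42 of the 78 tested genes fell (53.85%) and 2 rose (2.564%). Among all genes tested, 22.2% fell and 24.1% rose. The sequences before the start sites are shown for 5 members, and whether they bear on these changes was not tested. MRPL41, MRPL20, MRPS10 and MRPL52 were among the genes with the clearest fall in the libraries numbered 1, and MRPL45 was a gene that rose. The 120 bases before each start are from RefSeq on GRCh38.p14, read on the strand of the gene. They lie at chr9:137551759-137551878 (plus strand), chr1:1407294-1407413 (minus), chr6:42217862-42217981 (minus), chr14:22829767-22829886 (plus) and chr17:38297048-38297167 (plus), in the same order. Capitals mark the letters of a motif searched on both strands: CCGGAAG for ETS factors, AAGATGGC for YY1 and GGGCGG for SP1. The line of MRPL45 holds no capitals because only the 120 bases before the start are printed. In the longer window searched below, MRPL45 held the SP1 and YY1 letters and the NRF1 core TGCGCA. The printed lines are therefore no contrast between genes that fell and a gene that rose.
MRPL41: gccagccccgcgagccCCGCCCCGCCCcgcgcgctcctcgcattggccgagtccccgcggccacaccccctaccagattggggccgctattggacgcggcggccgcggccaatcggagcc
MRPL20: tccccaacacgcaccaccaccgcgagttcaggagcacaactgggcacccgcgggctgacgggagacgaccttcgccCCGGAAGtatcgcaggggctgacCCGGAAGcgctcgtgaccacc
MRPS10: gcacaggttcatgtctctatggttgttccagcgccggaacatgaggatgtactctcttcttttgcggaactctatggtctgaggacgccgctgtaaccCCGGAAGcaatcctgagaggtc
MRPL52: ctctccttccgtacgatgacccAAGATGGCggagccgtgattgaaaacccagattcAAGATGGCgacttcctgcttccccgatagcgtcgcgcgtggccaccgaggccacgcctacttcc
MRPL45: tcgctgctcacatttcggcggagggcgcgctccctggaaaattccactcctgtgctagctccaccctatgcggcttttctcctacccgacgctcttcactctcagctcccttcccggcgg

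In the window from 250 bases before to 50 bases after the start, 69 of the 81 genes had a RefSeq sequence, and the first listed window of each gene was searched. The shares are set beside those of 27305 windows of all genes and of the 10025 windows that belong to genes tested here. The ETS letters were in 28 of 69 windows (40.6%), against 10.7% of all windows and 19.1% of those of tested genes. The YY1 letters were in 20 (29%), against 3.03% and 5.4%. For the short NRF1 core TGCGCA the count was 14 (20.3%, against 8.42% and 13.4%). For SP1 it was 41 (59.4%), which is above the 44.6% of all windows but below the 68.2% of tested genes. The full NRF1 palindrome, which contains the core, was in 1 window (1.45%), between the 1.36% of all windows and the 2.31% of tested genes. The ZNF143 motif was in 0 windows, against 0.256% and 0.549%. These are matches of letters and not sites shown to be bound.

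The YY1 letters were mostly found just after the start: 15 of the 69 genes (21.7%) had them there on the strand of the gene, against 1.39% of all windows and 3.13% of those of tested genes. The examples below carry 9 flanking bases on each side and show how alike these stretches are, with the YY1 letters in capitals. They lie at chr1:1407262-1407287, chr6:42217836-42217861, chr17:75261889-75261914, chr17:38297172-38297197 and chr5:72320208-72320233 in the order given.
MRPL20: gacccgggcAAGATGGCagcggcgct
MRPS10: gggaccggcAAGATGGCggcgcggac
MRPS7: tggccagccAAGATGGCtgcccccgc
MRPL45: tgcgggaacAAGATGGCagcccccat
MRPS27: gtacgctccAAGATGGCtgcctccat

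These 5 genes did not move alike. MRPL20, MRPS10 and MRPS7 fell in the libraries numbered 1, MRPL45 rose and MRPS27 did not pass the test. Of the 37 genes with a window that fell there, 10 held the YY1 letters (27%), as did 9 of the 30 others tested (30%). The ETS letters were in 15 of the 37 (40.5%) and in 13 of the 30 (43.3%). The members also lay often back to back with another gene: 24 of the 77 protein-coding members (31.17%) had a gene on the opposite strand starting within 1000 bp, against 8.603% of 17808 protein-coding genes. Only 65.18% of those 17808 passed the filter on low counts, and the share among tested genes alone was not counted. MRPL46 and MRPS11 are such a pair in which both genes are members, and their log2 fold changes in the libraries numbered 1 were -0.45 and -0.45. Of the MRPL46 transcript, 73.12% is shared with another gene on the same strand. Partners of other members went either way: HIRA was at -0.36 beside MRPL40 at -0.35, and KLC4 at 0.57 beside MRPL2 at -0.14. Whether such pairs move together was not tested.

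Totals with 1 RefSeq transcript per gene were 27714431 to 35406063 counts per library, so 3 counts, the least this depth could show, came to 0.0847 to 0.108 CPM (counts per 1000000 counts of a library), counting error only. ASXL2 kept 48.85% of its EV level with SH2 and 45.83% with SH3. Of the markers of the line, RUNX1T1, KIT, MPO, CD33, PTPRC and SPI1 were at 88.2 CPM or more in every library, while CD34 was at 0.068 to 0.309 CPM. Markers of T, B, erythroid, epithelial and stromal cells and of liver were at or near 0, the highest being CD79A at 1.67 to 3.24 CPM. The library SH3 number 1 stood apart, at -58.6 on a principal component that held 52.9% of the variance, where the other 8 lay between -24.9 and 25.0. The main counts of members called are given with and without it, and most other values include it.

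Mitochondrial ribosomal protein genes took a small share of the RNA. Together they held 0.447%, 0.490% and 0.541% of the counts in EV numbers 1, 13 and 25. The shares were 0.513%, 0.539% and 0.592% with SH2 and 0.437%, 0.560% and 0.552% with SH3. The lowest share in each group was thus that of number 1, and EV was the lowest of the 3 groups at numbers 13 and 25 but not at number 1. Over the 9 libraries the SD of log2 CPM had a median of 0.17 among the members, 0.16 among 7624 genes within the members' range of levels and 0.21 among all genes tested.

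Levels below are CPM after TMM scaling of the library sizes. Per kilobase of transcript, they ran over a wide range in EV. MRPL12, the stalk protein of the large subunit, was highest at 208 CPM per kb. MRPL3 followed at 145 and MRPL20 at 124 CPM per kb, both large subunit proteins with bacterial relatives. At the other end, among tested members, stood the pseudogenes MRPL45P2 (2.19 CPM per kb) and MRPS31P5 (3.15 CPM per kb), then the small subunit gene MRPS33 (5.25 CPM per kb), whose annotated transcript of 4210 nt is long for this family. MRPL12 was at 178, 214 and 239 CPM in EV, 232, 245 and 277 CPM with SH2 and 179, 245 and 261 CPM with SH3. Of the length of its transcript, 69.47% is shared with an overlapping gene on the same strand, so part of its count cannot be assigned.

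The 3 genes named for ribosomal protein S18 differed in how well they could be measured. MRPS18B, at chr6:30585617-30594169 on GRCh37, had 1 count in EV number 1 and 0 in the other 8 libraries, and so was not tested. Among its 20 nearest protein-coding neighbours, 14 had under 10 counts in total and 5 passed the filter, against 65.18% of 17808 protein-coding genes. MRPS18C was measured at 40.5 to 53.4 CPM, but 83.61% of its transcript overlaps the gene ABRAXAS1 on the opposite strand. MRPS18A was at 28.6 to 37.3 CPM, with 60.62% overlap with RSPH9 on the opposite strand. The libraries did not keep strand, so reads of the partners in these pairs cannot be told apart. The other untested members were MRPL23-AS1 (0 to 2 counts per library) and MRPL42P5 (5 to 11 counts).

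Libraries numbered 1 were compared with those numbered 13 and 25 across the groups. Mitochondrial ribosomal protein genes were lower there: 42 of 78 fell (53.85%) and 2 rose (2.564%). Among all genes tested, 22.2% fell and 24.1% rose. The median log2 fold change was -0.19 for the members and 0.01 for all genes, and 14 of the 78 were above 0, against 50.9% of all genes. Summed over the members, number 1 stood at 0.851 of the mean of numbers 13 and 25 in EV, 0.941 with SH2 and 0.806 with SH3. So the direction was the same in all 3 groups and the deficit was smallest with SH2.

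**Figure D1:**
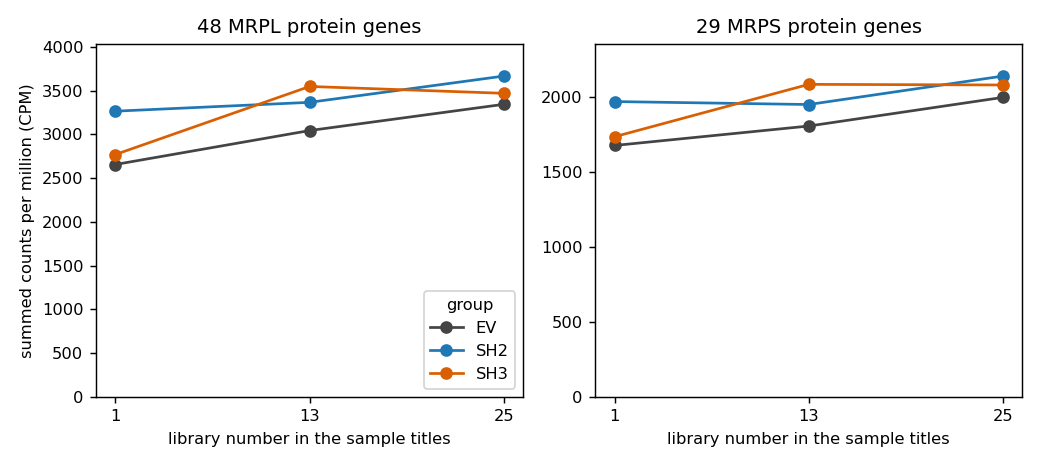
Summed CPM of the 48 MRPL (left) and 29 MRPS (right) protein-coding genes, a point per library, against the number in the sample title; lines join libraries of a group. In every group the sum at number 1 is below the mean of numbers 13 and 25, and EV is the lowest group at each number, which at number 1 does not hold against SH3 for shares of raw counts.

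The plot of summed values shows EV lowest at each number for MRPL and for MRPS genes. MRPL genes together came to 2655, 3043 and 3343 CPM in EV numbers 1, 13 and 25. They came to 3265, 3366 and 3666 CPM with SH2 and to 2769, 3547 and 3469 CPM with SH3. MRPS genes came to 1679, 1809 and 2000.5 CPM in EV, 1972, 1953 and 2143 CPM with SH2 and 1737, 2087 and 2083 CPM with SH3. Number 1 was thus the lowest of its group except for MRPS genes with SH2, where number 13 was. EV was below both shRNA groups at each number on this scale, while by the share of raw counts given above it was not below SH3 at number 1.

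MRPL41, a protein of the large subunit found only in mitochondria (chr9:140446331-140447007, GRCh37), had the smallest p. It was at 38.1, 51.7 and 57.6 CPM in EV numbers 1, 13 and 25, at 51.6, 60.3 and 73.9 CPM with SH2 and at 37.1, 59.3 and 61.6 CPM with SH3. Each library numbered 1 lay below all 6 others, and it fell by 0.53 on the log2 scale (SE 0.07, edgeR adjusted p 0.000649). MRPL20, a large subunit protein with a bacterial relative (chr1:1337289-1342673), was at 67.6, 87.5 and 105 CPM in EV, 87.9, 102 and 116 CPM with SH2 and 63.1, 110 and 109 CPM with SH3. Number 1 was lowest within every group, although the SH2 library numbered 1 was level with EV number 13. It fell by 0.53 on the log2 scale (SE 0.09, edgeR adjusted p 0.00134).

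The small subunit showed the same. MRPS7, which lies in the head of the subunit near the decoding site (chr17:73257960-73262457), was at 71.5, 87.5 and 110 CPM in EV, 90.2, 100 and 119 CPM with SH2 and 63.4, 104 and 110 CPM with SH3. Within each group number 1 was the lowest, and it fell by 0.49 on the log2 scale (SE 0.08, edgeR adjusted p 0.00163). MRPS10, another protein of the head (chr6:42174545-42185599), was at 58.7, 71.3 and 86.8 CPM in EV, 68.9, 84.8 and 87.3 CPM with SH2 and 47.6, 89.6 and 84.7 CPM with SH3. The libraries numbered 1 did not overlap the 6 others, and it fell by 0.53 on the log2 scale (SE 0.10, edgeR adjusted p 0.00238). The other genes with the smallest p were MRPL4 (-0.44), MRPL55 (-0.40), MRPS15 (-0.38) and MRPL52 (-0.32).

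Counted without a model, 9 members (11.54%) had all 3 libraries numbered 1 below all 6 others. This is close to the 12.1% of all genes tested, so that count sets the members apart from nothing. They were MRPL3, MRPL4, MRPL19, MRPL27, MRPL30, MRPL38, MRPL41, MRPS10 and MRPS26. None had all 3 above, against 14.4% of all genes.

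The 2 members that rose are both in the large subunit. MRPL10, which anchors the MRPL12 stalk, was at 45.4, 42.2 and 42.1 CPM in EV, 53.2, 45.0 and 47.1 CPM with SH2 and 60.5, 49.0 and 47.5 CPM with SH3. Its rise was 0.22 (log2, SE 0.06, edgeR adjusted p 0.0147), and it did not pass without SH3 number 1 (0.16, edgeR adjusted p 0.0649), without SH3 number 25 (0.18, edgeR adjusted p 0.053) or with no term for the group (0.22, edgeR adjusted p 0.0816). The row with the highest count for MRPL10 is a non-coding RefSeq transcript. MRPL45, which ties the ribosome to the inner membrane, was at 57.4, 56.0 and 51.3 CPM in EV, 68.4, 60.0 and 56.0 CPM with SH2 and 75.04, 58.7 and 57.2 CPM with SH3. Number 1 was the highest within each group, with a rise of 0.24 (log2, SE 0.06, edgeR adjusted p 0.0105). Reads of MRPL45 may be split with its near copies, of which MRPL45P2 was counted at 1.63 to 2.50 CPM.

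**Figure D2:**
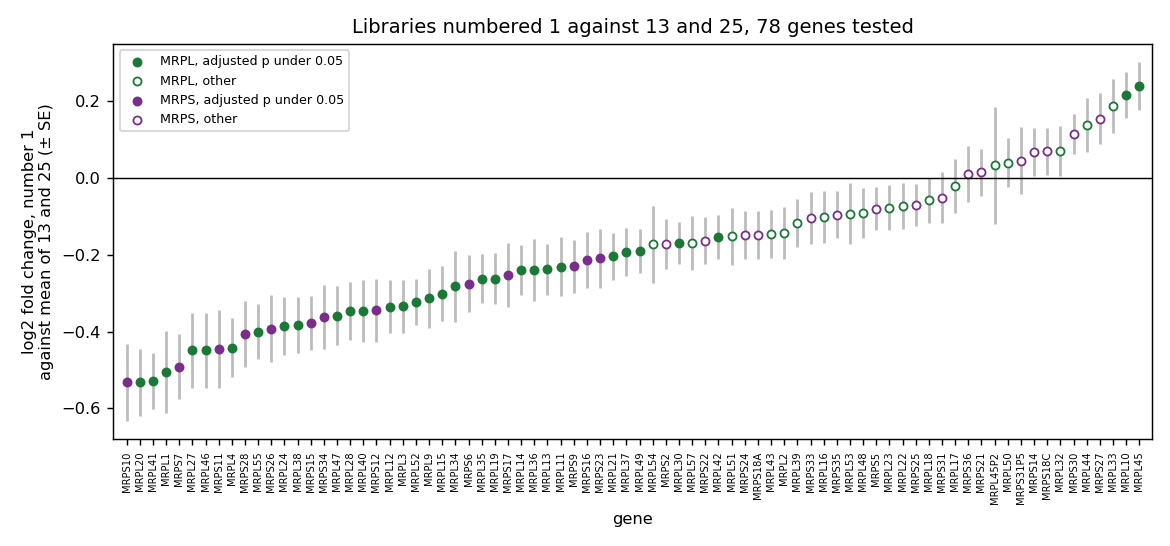
Log2 fold change of each of the 78 tested genes between libraries numbered 1 and those numbered 13 and 25, sorted, with standard errors; green is MRPL, purple MRPS, filled points passed an edgeR adjusted p of 0.05. The values run from -0.53 (MRPS10) to 0.24 (MRPL45), and the 2 filled points above 0 are MRPL10 and MRPL45.

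The genes were also counted by subunit and by whether the protein has a bacterial relative, beside the 22.2% of all genes that fell and 24.1% that rose. In the large subunit, 21 of 30 such genes fell and 1 rose (median log2 fold change -0.25), against 8 of 20 mitochondria-specific genes, where 1 rose (median -0.15). For the small subunit, 10 of 16 fell (median -0.24) against 3 of 9 (median -0.10). The difference between these classes was not tested. The stalk protein MRPL12 fell by 0.34 on the log2 scale (SE 0.07, edgeR adjusted p 0.0036), and MRPS12, a protein of the decoding site, by 0.34 (SE 0.08, edgeR adjusted p 0.00694). MRPS6 fell by 0.28 on the log2 scale. MRPS18A (-0.15), MRPS18C (0.07), MRPS30 (0.11) and MRPS36 (0.01) did not pass. MRPL1 and MRPL3 fell by 0.50 and 0.33 on the log2 scale, and MRPL1, with MRPL41 and MRPL20, had the largest spread of any member over the 9 libraries.

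**Figure D3:**
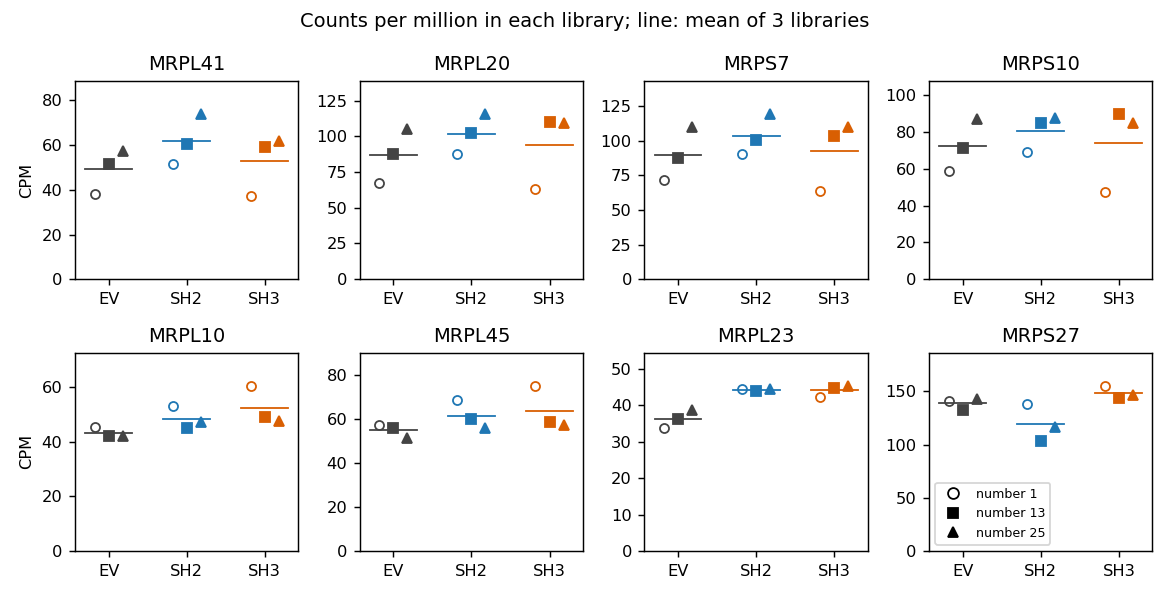
Levels in CPM of 8 genes in each of the 9 libraries by group; marker shape gives the library number, open circles are number 1, and the line is the mean of a group. MRPL41, MRPL20, MRPS7 and MRPS10 have their lowest point at number 1 in each group, MRPL10 and MRPL45 their highest, and MRPL23 separates EV from both shRNA groups.

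GC content moved with this result inside the family. Members above the family's median GC content fell in 26 of 39 cases (median log2 fold change -0.28), the others in 16 of 39 (median -0.10). Across the 78 members Spearman's rho with GC content was -0.37, while across 12338 genes with a known transcript it was 0.01, genes not being independent replicates. Level moved with this result as well: rho with mean log2 CPM was -0.31 over those 12338 genes and -0.18 over the members. Genes at higher levels thus tended to be lower at number 1. The shares of all genes are not matched for level, and its part in the result was not tested. With the counts corrected for transcript length and GC content, 52 members fell and 2 rose, against 29.5% and 22.5% of all genes. Leaving out SH3 number 1, 31 fell and 1 rose, with 16.3% and 17.3% of all genes, and the median was -0.15.

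Whether the number 1 difference varied between the groups was tested as an interaction. The median over members was -0.22 in EV, -0.09 with SH2 and -0.29 with SH3. EdgeR called 0 members and 0 genes (0.0%) at an adjusted p under 0.05. At an unadjusted p under 0.05 there were 1 member (MRPL27) and 817 of 14199 genes (5.75%). With 3 residual degrees of freedom, differences of this size between groups could not be settled.

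Other genes of mitochondrial protein synthesis were counted in the same way, again beside 22.2% of all genes lower and 24.1% higher. Of the other ribosome components, which do not carry MRP names, 4 of 8 fell and 2 rose, with AURKAIP1 at -0.53 and DAP3, a small subunit GTP-binding protein, at -0.31 (log2 fold changes). Assembly factors fell in 14 of 24 cases and rose in 1: the GTPase MTG2 was at -0.38, MPV17L2 at -0.67 and NOA1 rose by 0.61. Among translation factors 7 of 15 fell and 1 rose, led by GFM1, the elongation factor G of mitochondria, at -0.91. Mitochondrial tRNA synthetases fell in 7 of 17 cases and rose in 2, with LARS2 at -0.46. Among genes that copy and transcribe mitochondrial DNA 6 of 10 fell, among them the RNA polymerase POLRMT at -0.42, and 2 rose, among them the nuclease MGME1 at 0.34. Regulators of mitochondrial biogenesis fell in 4 of 10 cases and rose in 2, with the PGC-1 relatives PPRC1 at -0.49 and PPARGC1B at -0.47.

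The nuclear subunits of oxidative phosphorylation, which the mitochondrial ribosome does not make, and the cytosolic ribosomal proteins were set beside the members. Nuclear subunits of oxidative phosphorylation fell in 32 of 76 cases and rose in 2, with a median log2 fold change of -0.12 (all genes: 22.2% fell, 24.1% rose). Their sum at number 1 was 0.896 of the mean of 13 and 25 in EV and 0.891 with SH3, but 1.03 with SH2. Cytosolic ribosomal proteins went the other way: 73 of 78 rose and 0 fell, with a median of 0.45 and 78 of 78 above 0. Their sum at number 1 was 1.15 times that of 13 and 25 in EV, 1.38 with SH2 and 1.58 with SH3. The summed RNA shares of the cytosolic and the mitochondrial ribosomal protein genes thus differed in direction in each of the 3 groups. CPM are shares of a library, and the part of this change in shares in the result was not tested.

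**Figure D4:**
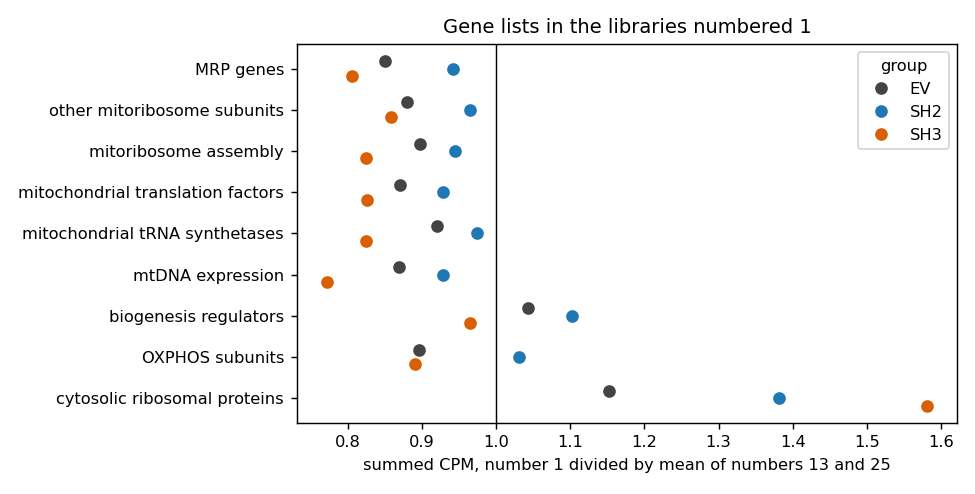
Summed CPM of 9 gene lists in the library numbered 1, divided by the mean of numbers 13 and 25, in each group. The ratios of the mitochondrial ribosomal protein (MRP) genes are 0.806 to 0.941 and those of the cytosolic ribosomal proteins 1.15 to 1.58.

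ASXL2 shRNA groups were then compared with EV. Mitochondrial ribosomal protein genes were mostly somewhat higher with either shRNA, but nearly none passed the test. With the groups as the only term, edgeR called 0 members and 0 genes (0.0%) for SH2, for SH3, for their mean and between them. At an unadjusted p under 0.05 there were 8, 6, 10 and 1 members, beside 5.37%, 5.09%, 6.63% and 2.06% of all genes. DESeq2 called 0, 0, 1 (MRPL23) and 0 members, with 0.155%, 0.183%, 0.394% and 0.0775% of all genes. The median log2 fold change over the 78 members was 0.18 with SH2, 0.12 with SH3 and 0.16 for their mean, where 76, 73 and 76 members were above 0. Over all genes tested, 51.4%, 53.1% and 53.0% were above 0. Both shRNA comparisons use the same EV libraries, so their directions are not independent.

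With the number as a block, edgeR called 1 member, MRPL23, for the mean of the shRNAs. It called 0 members for SH2, SH3 and between them, where 0.282%, 0.416% and 0.106% of all genes were called. In the mean of the shRNAs, 0.254% of all genes rose and 0.845% fell. MRPL23 lies at the exit of the peptide tunnel of the large subunit (chr11:1968562-1977830, GRCh37). It was at 33.7, 36.3 and 38.7 CPM in EV, 44.6, 43.8 and 44.6 CPM with SH2 and 42.3, 44.8 and 45.4 CPM with SH3. All 6 knockdown libraries lay above all 3 of EV, and it rose by 0.29 on the log2 scale (SE 0.06, edgeR adjusted p 0.0488). This call is a narrow one: over 17 alternatives with the block it passed in 4, and its adjusted p ran from 0.0088 without SH3 number 1 to 0.349.

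Among those just short of the threshold in that fit were MRPL55 (0.29, edgeR adjusted p 0.0728) and MRPL2 (0.29, edgeR adjusted p 0.0709). MRPL24 (0.30, edgeR adjusted p 0.0805) and MRPL52 (0.24, edgeR adjusted p 0.0805) were others. For 6 members (7.692%), MRPL22, MRPL23, MRPL33, MRPL53, MRPS18C and MRPS21, all 6 knockdown libraries were above all 3 of EV, against 2.16% of all genes. Matched by number, all 6 were above their own EV library for 39 of the 78 members, against 11.6% of all genes, and none was below throughout, also against 11.6%. Among named genes, MRPS30 was at 111, 91.0 and 123 CPM in EV, 126, 102 and 134 CPM with SH2 and 135, 106 and 137 CPM with SH3. Here the number moved the level more than the shRNA did, and each shRNA value was above its own EV value.

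The result varied with the number and with a library. Within numbers 1, 13 and 25 the median difference from EV over the members was 0.29, 0.14 and 0.13 (log2) with SH2 and 0.09, 0.22 and 0.07 with SH3. SH3 was thus below SH2 at number 1 and above it at number 13. Without SH3 number 1, the fit with the block called 29 members higher for the mean of the shRNAs, where 5.09% of all genes were called higher. For SH2 alone it called 28 higher and MRPS27 lower (4.62% and 6.61% of all genes), and for SH3 alone MRPL2, MRPL23 and MRPL55 higher (0.819%). So the count of members called turns on whether that library is kept.

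Transcript length moved with this comparison. The tested members have a median transcript length of 1242 nt, against 3182 nt for 12338 genes, and 54 of the 78 fall among the shortest of 5 equal classes. For the mean of the shRNAs with the block, the median log2 fold change in that class was 0.11 over 2468 genes and 0.18 over the 54 members. Spearman's rho between log2 fold change and length was -0.40 over the members and -0.41 over all genes, a description across genes. With a correction for length and GC content the members' median fell from 0.17 to 0.07, 65 of 78 stayed above 0 (52.9% of all genes) and 0 were called (0.154% of all genes). For SH3 alone the corrected median was 0.05, with 53 of 78 above 0 (50.6% of all genes), and for SH2 it was 0.09, with 71 of 78 (54.1%).

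**Figure D5:**
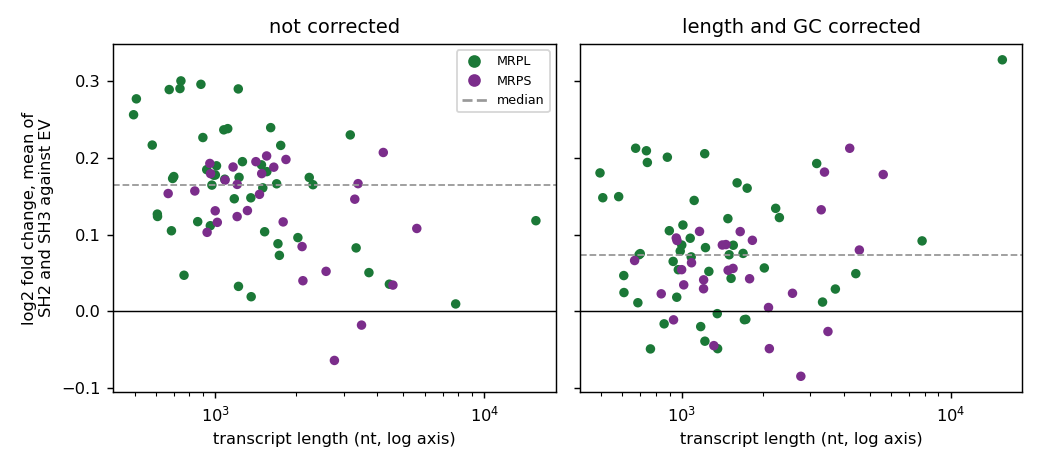
Log2 fold change of the mean of SH2 and SH3 against EV, with the number as a block, for 78 genes against transcript length on a log axis, before (left) and after (right) a correction for length and GC content; the dashed line is the median. The median goes from 0.17 to 0.07.

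Related gene lists showed similar small values in this comparison. With the block, nuclear oxidative phosphorylation subunits had a median log2 fold change of 0.19, with 74 of 76 above 0 and 1 called, NDUFB4 (0.35, edgeR adjusted p 0.0379). For cytosolic ribosomal proteins it was 0.14, with 78 of 78 above 0 and 0 called, but their sums relative to EV differed with the number. They were 1.17, 0.914 and 1.05 with SH2 and 1.41, 0.985 and 1.08 with SH3 at numbers 1, 13 and 25, so both were below EV at number 13. The other mitochondrial ribosome components had a median of 0.14, with 8 of 8 above 0 and 0 called. Assembly factors (0.03), translation factors (0.06), tRNA synthetases (0.06), genes of mitochondrial DNA expression (0.04) and biogenesis regulators (-0.002) lay nearer to 0, and 0 of them were called. Corrected for length and GC content, these medians were 0.11 for the 60 oxidative phosphorylation subunits with a known transcript, 0.08 for the other ribosome components, 0.05 for cytosolic ribosomal proteins and for tRNA synthetases, and 0.04 for biogenesis regulators. They were 0.03 for assembly factors, 0.02 for translation factors and -0.05 for mitochondrial DNA expression, beside the 0.07 of the members.

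Between the shRNAs, the median log2 difference (SH3 minus SH2) over the members was -0.06 and 16 of 78 were above 0, against 50.8% of all genes. Its direction was not stable: within numbers 1, 13 and 25 it was -0.20, 0.08 and -0.05, with 9, 67 and 16 of 78 above 0, and without SH3 number 1 it was 0.02, with 57 of 78 above 0. MRPS27, a pentatricopeptide repeat protein of the small subunit (chr5:71515230-71616067, GRCh37), was picked out after its values were seen. It was at 141, 133 and 143 CPM in EV, 138, 104 and 117 CPM with SH2 and 155, 144 and 147 CPM with SH3. All 3 SH2 libraries were below, and all 3 SH3 libraries above, the EV library of the same number. The difference of 0.31 (log2, SE 0.11) did not pass in edgeR without the block (adjusted p 0.998) or with it (0.32, edgeR adjusted p 0.152).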

How the data were processed

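RNA of 9 SKNO-1 libraries had been sequenced by the authors from unstranded poly(A) libraries. The extraction text in the labels describes sorted bone marrow cells, whereas they name the line itself as source. Per RefSeq transcript on hg19 (GRCh37), the authors deposited unnormalized counts, in 48104 rows per library. The submitters' processing notes name STAR, featureCounts and DESeq2, with no versions. Reads shared by isoforms were counted in several rows, so the row with the highest total stood for each symbol (31 members have several rows).

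Counts were analysed with edgeR 4.0.16 in R 4.3.3: filterByExpr (minimum count 10, minimum total 15), TMM normalization, quasi-likelihood F tests, and Benjamini-Hochberg adjustment over all 14199 genes with a threshold of 0.05. The shRNA contrasts used a term for group, and the contrast of number 1 used group and number. For the interaction, the number 1 difference was fitted within each group. The number was also fitted as a block: over the 9 pairs of libraries with the same number in their titles, deviations from the group means correlated at 0.398 to 0.731, each above 0.1. Transcript lengths, GC content, overlaps and GRCh37 coordinates came from GENCODE v44lift37, and length and GC were corrected per library by splines with 5 degrees of freedom each. DESeq2 1.42.0, other normalizations, no filter, summed transcripts and leaving out libraries were alternatives. The fits were tested on simulated data. Log2 CPM used a prior count of 2. Members, lists and tests were chosen with earlier results of these data known. Members were named if past the threshold (up to 8 per direction and contrast by p), if among the 3 highest or lowest per kilobase in EV or the 3 of largest spread, or from a list of well known subunits, and up to 3 genes per other list by smallest p. MRPL58 of that list appears as ICT1 in the files and is not a member. Further genes, such as MRPS27 and those that make up small counts, were chosen after their values were seen.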

Additional observations from a re-analysis of the deposited data

Results flagged for a closer look

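MRPS27 differed in direction between the shRNA groups by number: it was below the EV library of the same number in all 3 SH2 libraries and above it in all 3 SH3 libraries. The log2 difference SH3 minus SH2 was 0.3145 (SE 0.11, edgeR adjusted p 0.998), and with the number as a block it was 0.32 (SE 0.08, edgeR adjusted p 0.152). It passed with the block without the 3 libraries numbered 1 (0.39, edgeR adjusted p 0.0138) and in DESeq2 with the block (0.32, adjusted p 0.0259).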

How the results depend on the processing

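The number 1 comparison was the steadier result. In its 16 alternatives the count of members called stayed within 1.5 times the 44 called, and the members' median log2 fold change stayed below 0. Leaving out a library gave medians of -0.26 to -0.152. The lowest count of members was 32 (41.03%), without SH3 replicate 1, where 33.7% of all genes were called. With all libraries kept, the count was 44 (56.41%), where 46.3% of all genes were called. Of the named genes, MRPL10 alone lost its call there, with no group term (0.22, edgeR adjusted p 0.0816), without SH3 replicate 1 (0.16, edgeR adjusted p 0.0649) and without SH3 replicate 25 (0.18, edgeR adjusted p 0.053). Its interaction with the group gave 0 members under each alternative run.

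For the shRNA comparisons, leaving out a library without the block gave 0 members each time. The median ran from 0.125 to 0.257 for SH2, 0.053 to 0.209 for SH3, 0.074 to 0.229 for their mean and -0.115 to 0.023 between the shRNAs. The replicate block raised the count for the mean of the shRNAs from 0 to 1 (MRPL23). It changed no other call among the members. With the block, MRPL23 was also called with DESeq2 size factors (edgeR adjusted p 0.0499) and with only genes with a length (edgeR adjusted p 0.0461). DESeq2 called 1 (MRPL23) without the block. DESeq2 with the block called 3 for SH2, 6 for the mean of the shRNAs and 1 between the shRNAs, the last being MRPS27 (2.6%, 4.43% and 1.09% of all genes). The block without the 3 libraries numbered 1 called 1 for SH2 (MRPS27, lower), 1 for the mean (MRPL24, higher) and 1 between the shRNAs (MRPS27), beside 1.9%, 2.63% and 0.916% of all genes. With the block and length and GC correction, the median for the mean of the shRNAs was 0.074, and fewer genes entered that fit. The block without SH3 replicate 1 called 29 for SH2, 3 for SH3 and 29 for the mean (11.2%, 2.58% and 12.3% of all genes). Without SH3 replicate 13 it also called members for SH2 and between the shRNAs. The share of all genes was not set beside these calls, so they are not read as a result about the members. The causes were not tested. Alternatives of the block with another tool, scaling, transcript sum, gene set or left-out library were chosen after seeing the data. Low counts kept only 3 members out of the tests. The tested members had from 1.63 CPM upward, above the 0.108 CPM that 3 counts make in the shallowest library. Why MRPS18B was nearly without counts was not tested.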
